A study of Mus musculus with 1646 samples.

Results

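The genes described here were 8 CC chemokines measured in single mesenchymal cells of the mouse colon: *Ccl2*, *Ccl5*, *Ccl7*, *Ccl8*, *Ccl11*, *Ccl19*, *Ccl20* and *Ccl25*. They were taken from the gene table by Ensembl identifier, and all 8 were found among its 46517 genes. The cells, 1646 in number, came from adult male mice on a C57BL/6J background that carried 1 of 4 reporters, and every cell had been sorted as negative for the endothelial antigen CD31. The line labelled PdgfrbGFP (761 cells, 4 plates) expresses GFP under the Pdgfrb promoter, Acta2GFP (567 cells, 2 plates) GFP under the smooth muscle actin promoter, Cspg4dsRED (91 cells, 1 plate) DsRed under the Cspg4 promoter, and PdgfraGFP (13.8% of the cells, 2 plates) a nuclear GFP from the Pdgfra locus. There was no treatment, and the study's methods give an age of 10 to 20 weeks for the mice.

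Each cell carried a cluster number in its label. Clusters 7, 5, 1, 6 and 2 are fibroblasts that the study places along the crypt from its base (7) over the lower part (5), the middle (1) and the upper part (6) to the apex (2), and clusters 4, 3 and 8 are pericytes, vascular smooth muscle cells and interstitial smooth muscle cells. Cluster 7 held 13.5% and cluster 1 29.3% of the cells. The labels name no mouse, so the reporter line was taken as the sample. A level is the mean over the cells of a line of counts per 500000 counts of the cell, and means with SD were taken across lines, each with 10 or more cells in that cluster. A reporter marks cells by its promoter, and the lines also differed in how the tissue was digested, since elastase was added for Acta2GFP. Which cells a line contributed and what its cells expressed cannot be told apart.

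CC chemokines are small secreted proteins named for a pair of adjacent cysteines near the N-terminus. They attract leukocytes through G-protein-coupled receptors, and stromal cells of the gut wall are a known source of several of them. Ccl2, Ccl7 and Ccl8 are monocyte attractants, Ccl11 (eotaxin) attracts eosinophils through Ccr3, Ccl19 attracts T cells and dendritic cells through Ccr7, and Ccl20 and Ccl25 are best known as epithelial ligands of Ccr6 and Ccr9. A group of atypical receptors binds chemokines without signalling through G proteins and clears or presents them.

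The stretch of 30 bases around the cysteine pair is shown for each member because it is the feature that defines the family. It lies in coding exon sequence of the GRCm38 genome, and the capitals mark the codons of the adjacent cysteines. *Ccl12*, a neighbour of *Ccl8* that was nearly unexpressed, is added.
Ccl2, chr11:82036494-82036523, + strand, exon 2 of 3: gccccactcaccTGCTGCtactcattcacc
Ccl7, chr11:82046526-82046555, + strand, exon 2 of 3: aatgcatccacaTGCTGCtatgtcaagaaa
Ccl8, chr11:82116044-82116073, + strand, exon 2 of 3: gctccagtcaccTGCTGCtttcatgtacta
Ccl11, chr11:82061684-82061713, + strand, exon 2 of 3: atcccaacttccTGCTGCtttatcatgacc
Ccl12, chr11:82102622-82102651, + strand, exon 2 of 3: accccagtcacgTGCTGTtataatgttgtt
Ccl5, chr11:83529230-83529259, - strand, exon 2 of 3: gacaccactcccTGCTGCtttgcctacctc
Ccl19, chr4:42755248-42755277, - strand, exon 2 of 4: gatgcggaagacTGCTGCctgtctgtgacc
Ccl20, chr1:83117801-83117830, + strand, exon 2 of 3: agcaactacgacTGTTGCctctcgtacata
Ccl25, chr8:4353885-4353914, + strand, exon 3 of 6: gcctttgaagacTGCTGCctgggttaccag

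*Ccl2*, *Ccl7*, *Ccl11*, *Ccl12* and *Ccl8* follow each other in this order on the + strand of chromosome 11, over 81229 bases at chr11:82035571-82116799. Their coding sequences were alike at 69.1% to 73.2% of aligned positions. No run of 50 bases, the length of a read, was shared between an exon of *Ccl2*, *Ccl7*, *Ccl8*, *Ccl11*, *Ccl5* or *Ccl20* and any other annotated gene, so these members could be counted apart. *Ccl19* differed: 51.97% of its 50-base runs also occurred in *Gm2564*, *Ccl19-ps3*, *Gm12407* or *Ccl19-ps1*, and its counts are uncertain. *Ccl2*, *Ccl19* and *Ccl25* overlap a gene on the other strand (*Gm17268*, *4930578G10Rik* and *Elavl1*). Of these, 2.06% of the 50-base runs of *Ccl25* also occurred in *Elavl1*, and reads there cannot be told apart without stated strand; *Ccl2* and *Ccl19* shared no such run with their partner.

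The members fell into 3 ranges of abundance. *Ccl11* had 295772 counts in all and at least 1 count in 1497 cells (90.95%), and 15.03% of these cells held 50% of its counts. *Ccl2* (23546 counts in 584 cells), *Ccl7* (23379 counts in 675 cells) and *Ccl8* (7922 counts in 18.9% of cells) were carried by few cells, with 50% of the counts in 19, 23 and 15 cells. *Ccl19* (1551 counts in 7.05% of cells) and *Ccl25* (1276 counts in 68 cells) were rare, and *Ccl5* (counted in 15 cells, with 68 counts or 66.02% in 1 of them) and *Ccl20* (21 counts in 3 cells, 19 of them in 1 cell) were close to absent. The cell with 19 *Ccl20* counts was a cluster 7 cell of PdgfrbGFP that also held 66 counts of epithelial and 19 of immune marker genes, and more of endothelial ones, and the part of these in its *Ccl20* was not tested.

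Total counts per cell on genes ranged from 47598 to 1494292, with plate medians from 113721 to 725043. Summed fibroblast markers (*Pdgfra*, *Lum*, *Dcn*, *Col1a1*) were at 2733 to 7777 in the 5 fibroblast clusters and at 112.1 to 1690 in the mural clusters, and summed mural markers (*Rgs5*, *Notch3*, *Mcam*, *Des*) at 484 to 5716 in mural clusters and at most 94.8 in fibroblasts. The study had removed cells with a clear endothelial or immune signature, so low levels of such markers follow in part from that filter. The sum of 8 immune markers was at 1.02 to 37.4 in the lines of clusters 1, 4, 5 and 7, with both ends of this range in cluster 5. It was led by the myeloid genes *Lyz2* (4.77, 12.2, 6.66 and 3.65) and *Csf1r* (5.48, 3.60, 6.05 and 3.46). *Ptprc* was at 0.0173, 0.252, 0.179 and 0.0222 and *Cd3g* at 0. Among endothelial markers *Cdh5* was at 0.236 ± 0.294 (SD, n = 3 lines) and *Tek* at 179.5 ± 43.2 (SD, n = 3 lines) in cluster 7. The part of other cells' RNA in the results was not tested. Fibroblasts of plate colon_075s (PdgfrbGFP) stood apart by their immediate-early score, the mean of log2(counts per 500000 + 1) over 16 genes, of 8.03 against 4.11 to 5.92 on the other plates.

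**Figure D1:**
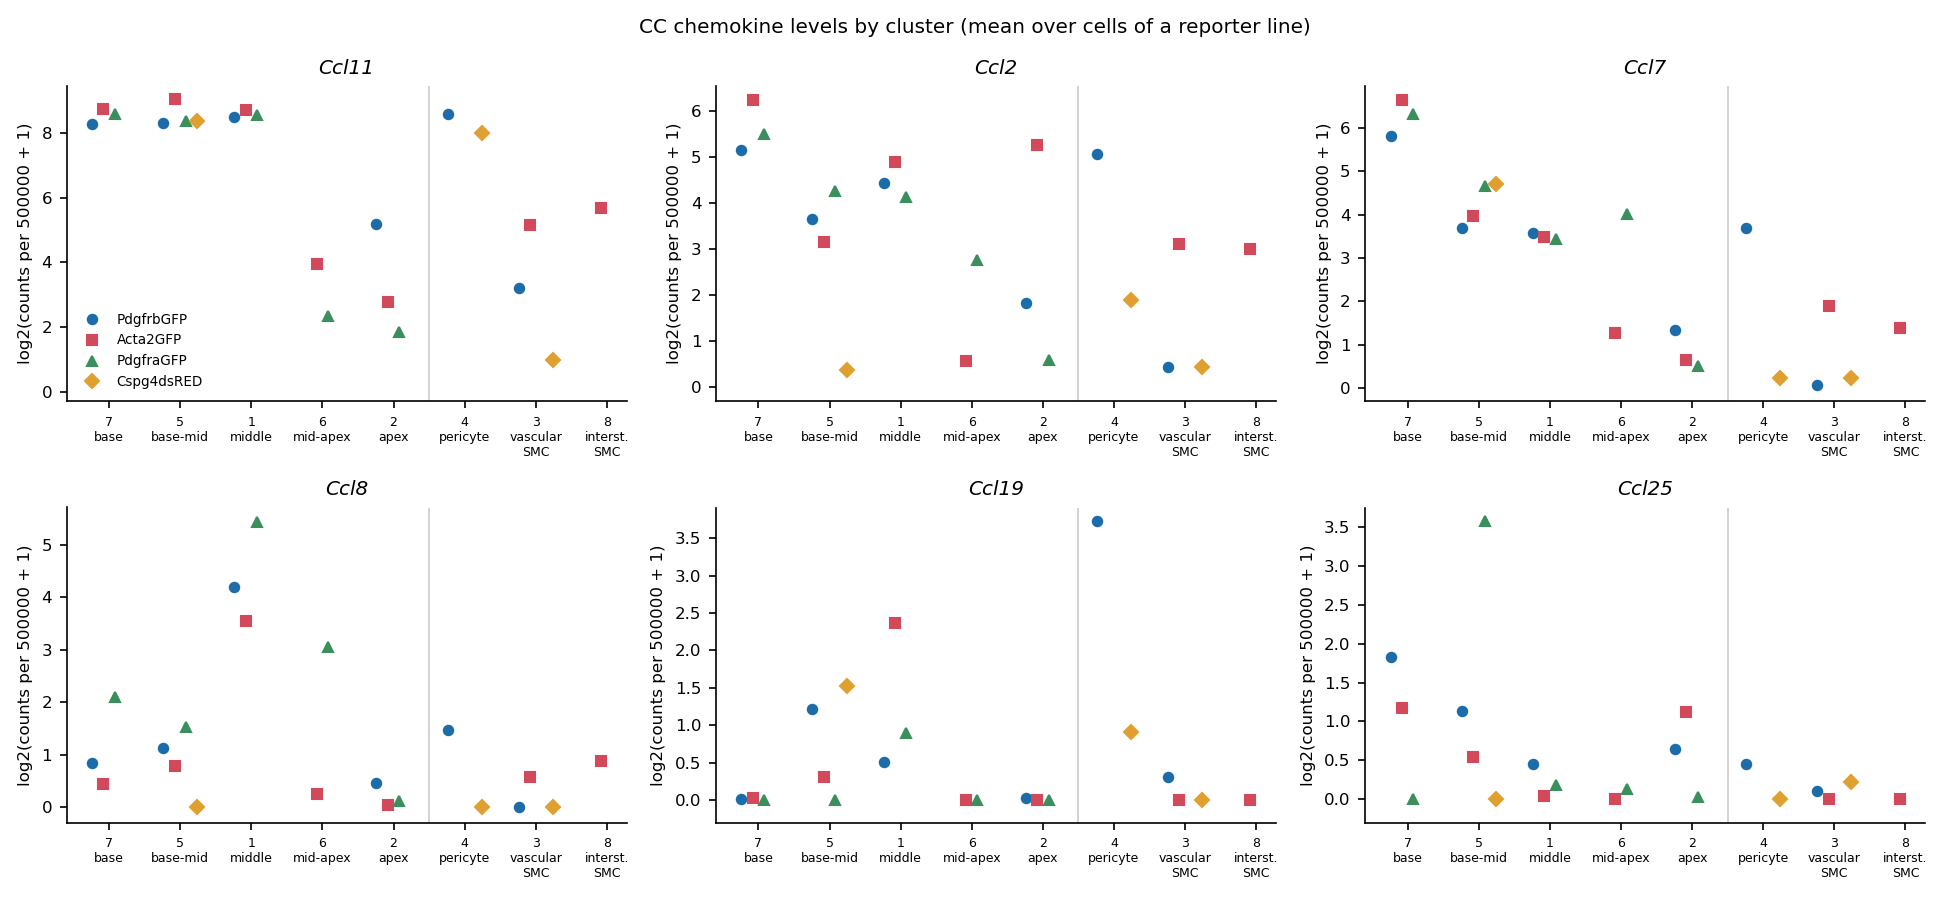
Level of 6 CC chemokines by cluster, as log2(counts per 500000 + 1) of the mean over the cells of a reporter line; each point is 1 line with at least 10 cells of that cluster, and fibroblast clusters stand left of the grey line. *Ccl11* is high in clusters 7, 5, 1 and 4 in every line shown, *Ccl7* is highest in cluster 7, and *Ccl8* is highest in cluster 1.

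*Ccl11* was high in the fibroblasts of the crypt base and middle and in pericytes, and low elsewhere. In cluster 7 its level was 424.5 in Acta2GFP, 381.9 in PdgfraGFP and 313.4 in PdgfrbGFP. In cluster 5 it was 530.4, 328.3 and 314.4 in the same lines and 328.9 in Cspg4dsRED, and in cluster 1 it was 422.3, 372.5 and 360.4. These 3 clusters overlapped, with means of 373.2 ± 56.1 (SD, n = 3), 375.5 ± 103.5 (SD, n = 4) and 385.1 ± 32.8 (SD, n = 3), and their order is within the spread between lines. Between 94.2% and 98.2% of their cells held 5 or more *Ccl11* counts.

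Toward the crypt apex *Ccl11* was lower in every line. In cluster 6 it was 14.5 in Acta2GFP and 4.08 in PdgfraGFP, and in cluster 2 it was 5.90 in Acta2GFP, 2.57 in PdgfraGFP and 35.5 in PdgfrbGFP. No line of clusters 2 or 6 reached the lowest line of clusters 7, 5 and 1. The PdgfrbGFP value stands above the other apex values, and its apex cells also held more *Cd34*, a gene that marks the lower fibroblasts, with 79.7 against 39.3 in Acta2GFP and 5.00 in PdgfraGFP (980.7 in cluster 5 of PdgfrbGFP); the part of this in the *Ccl11* level was not tested.

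*Ccl7* was highest at the crypt base. Its level in cluster 7 was 98.1 in Acta2GFP, 78.1 in PdgfraGFP and 55.4 in PdgfrbGFP. In cluster 5 it was 14.6, 24.3 and 11.9 in these lines and 25.04 in Cspg4dsRED, where 91.3% of the sum came from 1 cell. In cluster 1 it was 10.2, 9.89 and 10.97, and without the highest cell of each line 8.56, 3.47 and 8.37, since 1 cell held 65.4% of the PdgfraGFP sum. In cluster 2 it was 0.574, 0.431 and 1.52. All lines of cluster 7 lay above all lines of every other cluster, and clusters 5 and 1 differed from each other by less than the gap to cluster 7 (means 18.96 ± 6.68, SD, n = 4, and 10.4 ± 0.551, SD, n = 3, the latter closer together than without the highest cells). The share of cells with 5 or more *Ccl7* counts was 46.6% at the base, fell to 16.2% in cluster 5 and 13.3% in cluster 1, and was 3.82% at the apex.

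*Ccl2* had a related but looser pattern. Its level in cluster 7 was 74.7 in Acta2GFP, 43.95 in PdgfraGFP and 34.5 in PdgfrbGFP, and without the highest cell of each line 62.8, 23.5 and 25.8. In PdgfraGFP 3 of its 15 cells held all counts. In cluster 1 it was 28.5, 16.5 and 20.7, and without the highest cell of each line 11.2, 10.6 and 16.6. In cluster 5 it was 7.93, 18.2 and 11.6, and 0.308 in Cspg4dsRED. Cluster 7 lay above clusters 1 and 5 in each of these 3 lines, with or without the highest cells. The few cells of Cspg4dsRED had the opposite order, at 95.6 in 8 cells of cluster 1 and 21.6 in 5 cells of cluster 7. The apex was split, with 37.5 in Acta2GFP against 0.507 in PdgfraGFP and 2.56 in PdgfrbGFP, and the Acta2GFP value dropped to 11.1 without its highest cell.

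*Ccl8* was instead a gene of the crypt middle. Its level in cluster 1 was 10.8 in Acta2GFP, 42.6 in PdgfraGFP and 17.4 in PdgfrbGFP. In cluster 7 it was 0.354, 3.28 and 0.793, and in cluster 5 it was 0.727, 1.88 and 1.19, with no count in Cspg4dsRED. Among lines with at least 10 cells, all of cluster 1 lay above all of every other cluster. Smaller groups did not keep this order, with 47.2 in 2 pericytes of PdgfraGFP, 8.84 in 4 interstitial cells and 8.64 in 9 cells of cluster 6 of PdgfrbGFP, and 2.58 in 8 cells of cluster 1 of Cspg4dsRED. The highest of the larger groups, 7.29 in cluster 6 of PdgfraGFP, was 0.200 without its highest cell. Cells with 5 or more counts made up 16.4% of cluster 1 and at most 4.44% of any other cluster. By plate with at least 10 cells, the level in cluster 1 ran from 0.850 on colon_685s (19 cells) to 77.5 on colon_1075s (24 cells).

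On a scale per kilobase of exon, which allows genes to be compared, cluster 7 held *Ccl11* at 344.9, *Ccl7* at 96.4, *Ccl2* at 44.9 and *Ccl8* at 2.89. In cluster 1 the order was *Ccl11* at 355.9, *Ccl8* at 46.2, *Ccl2* at 19.3 and *Ccl7* at 12.9. These are means over lines. *Ccl8* in cluster 1 ranged so widely between lines that its order against *Ccl2* there is within their spread.

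**Figure D2:**
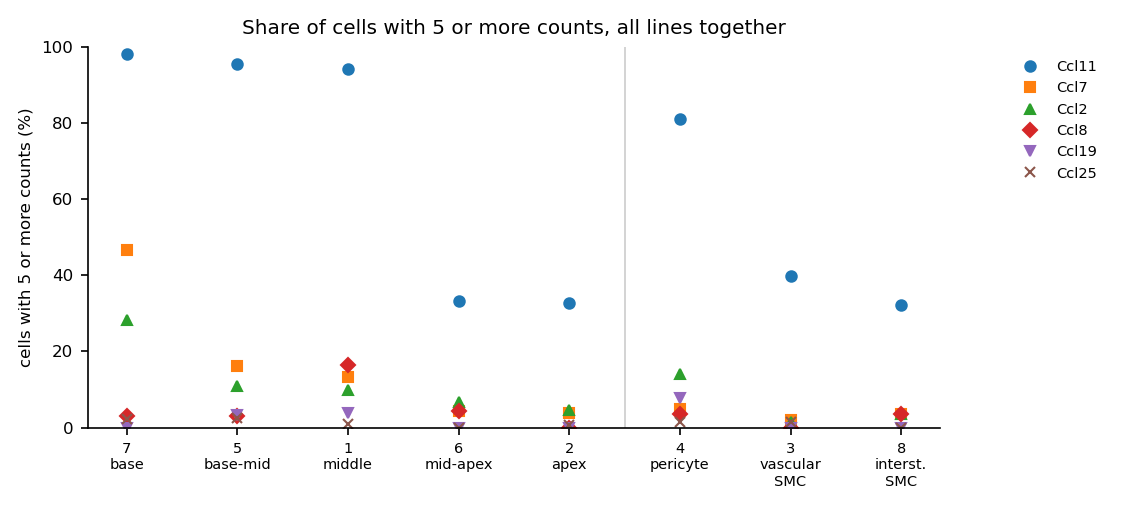
Percent of the cells of each cluster with 5 or more counts of a gene, all lines together, with fibroblast clusters left of the grey line. *Ccl11* passes this limit in 94.2% to 98.2% of cells in clusters 7, 5 and 1 and in 80.99% of cluster 4, and each of the other members in fewer than 50% of the cells of any cluster.

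Among mural cells *Ccl11* marked the pericytes. Its level in cluster 4 was 384.8 in PdgfrbGFP and 257.3 in Cspg4dsRED. In vascular smooth muscle cells (cluster 3) it was 8.16 and 0.954 in these lines and 34.5 in Acta2GFP, and in interstitial smooth muscle cells (cluster 8) it was 49.8 in Acta2GFP, the 1 line with at least 10 such cells. In lines with at least 10 cells, pericytes lay above smooth muscle cells without overlap, at a level near that of clusters 7, 5 and 1. Smaller groups did overlap, with 169.8 in 3 pericytes of Acta2GFP and 196.9 in 4 interstitial cells of PdgfrbGFP. Within cluster 4 the cells were uneven, with a median of 286.2 and quartiles of 29.7 and 549.

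Pericytes also held more of the summed fibroblast markers than vascular smooth muscle cells did, at 734 to 1690 against 112.1 to 655. Pericytes without any *Pdgfra* count were therefore taken alone: 55 cells of PdgfrbGFP had a *Ccl11* level of 419.1 and 30 cells of Cspg4dsRED one of 257.5, against 346.4 in 49 cells and 254.9 in 3 cells with such a count. The cells without a *Pdgfra* count still held the summed fibroblast markers at 1439 and 701.8, against 1971 and 1050 in the cells with one, so the split lowered these markers without removing them, and their part in the *Ccl11* level was not tested. In vascular smooth muscle cells the order was the other way, with 3.12 in 46 cells without and 14.6 in 36 cells with a *Pdgfra* count in PdgfrbGFP.

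*Ccl19*, a T cell zone chemokine, had its highest value among lines with at least 10 cells in PdgfrbGFP pericytes, at 12.2, or 8.61 without the highest cell. It was at 0.883 in the pericytes of Cspg4dsRED, where 1 cell held every count, and at 46.5 in 3 pericytes of Acta2GFP, from 17 counts. It had at least 1 count in 26 pericytes (18.3%, 95% Clopper-Pearson interval 12.3 to 25.7%). In PdgfrbGFP pericytes the level was 16.6 in cells without and 7.31 in cells with a *Pdgfra* count. In fibroblasts it was 4.17 in Acta2GFP, 0.857 in PdgfraGFP and 0.419 in PdgfrbGFP in cluster 1, and 0.0227, 0 and 0.0143 in cluster 7. The Acta2GFP value was 1.93 without its highest cell. In cluster 5 it was 0.240 in Acta2GFP, 0 in PdgfraGFP, 1.32 in PdgfrbGFP and 1.89 in Cspg4dsRED, the last from 4 counts. The pericytes of Cspg4dsRED thus lay within the range of the fibroblast values. *Ccl2* and *Ccl7* were at 32.5 and 11.8 in PdgfrbGFP pericytes and at 2.69 and 0.174 in those of Cspg4dsRED, so that the 2 pericyte samples did not share a level.

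*Ccl25* had its highest level among lines with at least 10 cells in cluster 5 of PdgfraGFP, at 10.9, where 6 cells held all counts and 1 cell 42.8%. It was 1.19 in PdgfrbGFP, 0.454 in Acta2GFP and 0 in Cspg4dsRED in that cluster, and at most 2.54 in any other cluster with at least 10 cells of a line. Below that size, 2 pericytes of PdgfraGFP held 52 counts. *Ccl5*, a T cell and monocyte attractant, had counts in 5 of 33 pericytes of Cspg4dsRED, a line of 1 plate, and in 1 pericyte of PdgfrbGFP (levels 0.795 and 0.00765). The highest of these cells held 2 *Ccl5* counts and 16 of immune marker genes, whose part was not tested. In any other cluster at most 0.897% of the cells had a count. *Ccl20* was counted in no cell of cluster 1, which at 3 counts allows a share of cells with a count of up to 0.621%, counting error only.

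**Figure D3:**
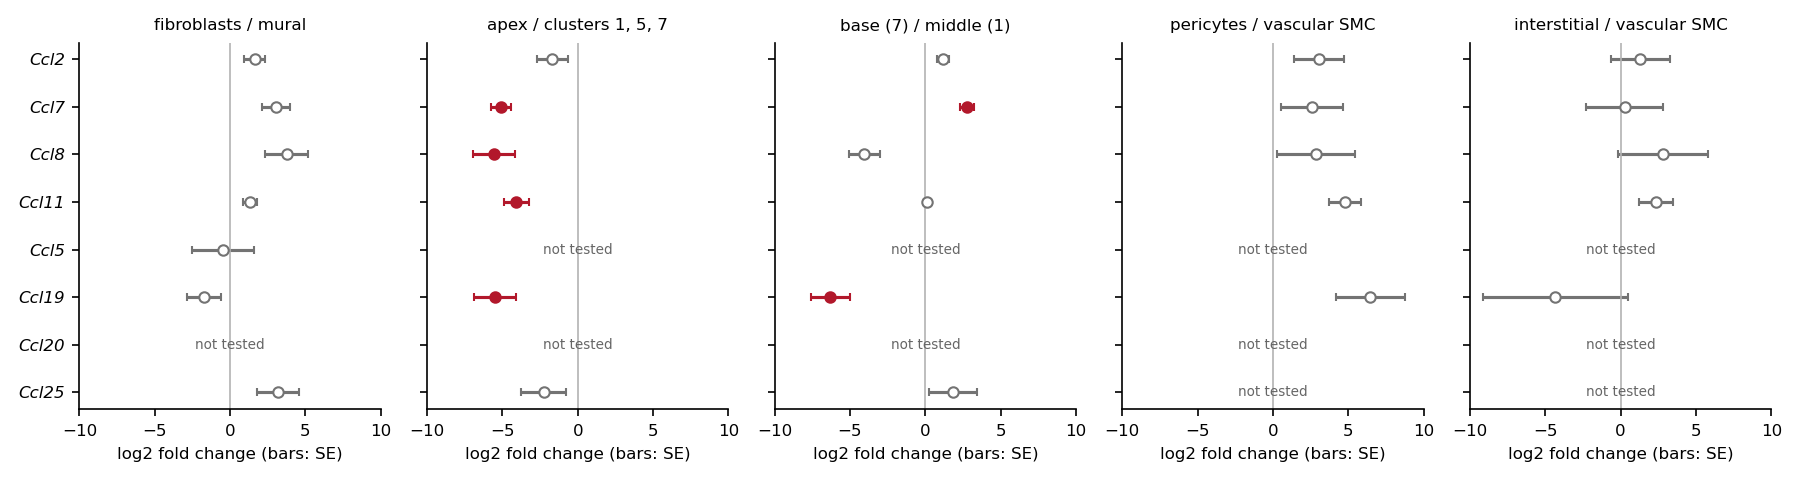
Log2 fold change of each member in 5 comparisons, from edgeR's quasi-likelihood test on counts summed per reporter line; bars are 1 standard error, and filled red points have a Benjamini-Hochberg adjusted p under 0.05. *Ccl7*, *Ccl8*, *Ccl11* and *Ccl19* are lower at the apex, *Ccl7* is higher and *Ccl19* lower in cluster 7 than in cluster 1, 2 calls lost with the line as a block (adjusted p 0.0833 and 0.108), and no other point passes. The *Ccl19* call at the apex is lost with the block too (0.0862), and *Ccl11* in pericytes passes with it (edgeR adjusted p 0.00315). The interstitial points rest on 1 line, with errors borrowed from the other mural classes.

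The first comparison asked whether the members differ between apex fibroblasts (cluster 2, 3 lines) and clusters 1, 5 and 7 (4 lines). The study's clustering rested on these counts too, and none of the tests is independent of the classes it compares. Of 15893 genes tested with edgeR's quasi-likelihood test at a Benjamini-Hochberg adjusted p under 0.05, 3.50% were higher and 3.76% lower at the apex. Of the 8 members 6 could be tested, 4 of them were lower and none higher, and their median log2 fold change was -4.60 against 0.00 for all genes.

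Before the test, the pooled *Ccl11* levels of clusters 1, 5 and 7 were 455.2 in Acta2GFP, 353.8 in PdgfraGFP, 334.6 in PdgfrbGFP and 250.3 in Cspg4dsRED, against 2.57 to 35.5 at the apex. *Ccl11* was lower by a log2 fold change of -4.08 (SE 0.82, edgeR adjusted p = 0.0169). *Ccl7*, at 17.7 to 37.6 against 0.431 to 1.52, was lower by -5.11 (SE 0.67, edgeR adjusted p = 0.00236). *Ccl8*, at 0.795 to 20.4 against 0.0215 to 0.382, was lower by -5.59 (SE 1.40, edgeR adjusted p = 0.0422). In the pool its level came mainly from cluster 1 (mean 23.6), with clusters 5 and 7 at 0.951 and 1.47 and the apex at 0.160. The groups of none of these 3 genes overlapped, and each was lower at the apex on 5 of the 5 plates with at least 10 cells of both classes.

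For *Ccl19* the apex held 1 count against 623, a ratio of summed counts per 500000 of 0.0133 (95% interval 0.000335 to 0.0741, counting error only; edgeR adjusted p = 0.0437). *Ccl2* (-1.68, SE 1.06, edgeR adjusted p = 0.457) and *Ccl25* (-2.27, SE 1.49, edgeR adjusted p = 0.478) did not pass. All 4 calls were lost without Acta2GFP, with adjusted p of 0.152 for *Ccl11*, 0.0577 for *Ccl7*, 0.212 for *Ccl8* and 0.278 for *Ccl19*. *Ccl8* and *Ccl19* were also lost without PdgfraGFP or PdgfrbGFP, *Ccl8* at 0.225 and 0.135 and *Ccl19* at 0.224 and 0.109, and *Ccl19* without plate colon_075s (0.0994) with no filter on low counts (0.140) and with the line as a block (0.0862). DESeq2 called the same 4 and 15.2% of all genes, and 20.2% had an unadjusted edgeR p under 0.05.

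The low *Ccl11* counts of clusters 2, 3, 6 and 8 moved with the wells around them. Over the cells of these clusters, 22.7% of all, a cell's *Ccl11* count and the summed *Ccl11* counts of wells in its row and column had a mean Spearman rho within plates of 0.529 (9 plates, 0.219 to 0.882). The points of a plate share a sequencing lane and index sets, and the part of other wells in these counts was not tested. At least 1 *Ccl11* count was found in 66.4% of apex cells, and 5 or more in 32.8%.

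The second comparison set the crypt base (cluster 7, 3 lines) against the middle (cluster 1, 3 lines). Without the line as a block 2 members passed, and with it neither did (edgeR adjusted p = 0.0833 for *Ccl7* and 0.108 for *Ccl19*). Of 15862 genes, 1.24% were higher and 1.25% lower at the base. *Ccl7* was higher (log2 fold change 2.74, SE 0.47, edgeR adjusted p = 0.0269 without the block). It was so on 5 of 5 plates with at least 10 cells of both clusters, from 37.2 to 124.1 at the base and from 1.71 to 20.2 in the middle. *Ccl19* was lower, with 3 counts in 3 cells (1.35%) against counts in 38 cells (7.87%) of cluster 1. The ratio of summed counts per 500000 was 0.0146 (95% interval 0.00299 to 0.0429, counting error only, edgeR adjusted p = 0.0489 without the block). The 6 tested members had a median of 0.63 against -0.03 for all genes.

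*Ccl8* pointed to the middle without passing (-4.05, SE 1.01, edgeR adjusted p = 0.0928), although it was lower at the base on 5 of 5 plates and its lines did not overlap. *Ccl2* (1.17, SE 0.40, edgeR adjusted p = 0.238) was higher at the base on 4 of 5 plates with both clusters, but its log2 fold change was 0.53 with at least 3 cells per sum and -0.66 with sums per plate. Plates colon_685s and colon_686s, with too few base cells to compare, had the highest levels in the middle among plates with at least 10 such cells (122.5 and 161.4). *Ccl11* differed by 0.09 (SE 0.18, edgeR adjusted p = 0.939) and was higher on 2 plates and lower on 3. With the line as a block the log2 fold changes of *Ccl7* and *Ccl19* were 2.62 and -6.24, and 1.26% of genes were called in place of 2.49%. *Ccl7* also missed the threshold without any 1 line, at 0.383 without Acta2GFP, 0.0619 without PdgfraGFP and 0.0816 without PdgfrbGFP, and *Ccl19* at 0.449, 0.0984 and 0.410, and without plate colon_075s at 0.0572 and with no filter on low counts at 0.113. *Ccl8* passed without PdgfraGFP (edgeR adjusted p = 0.0426) and with DESeq2 (adjusted p = 0.00022), which called 8.38% of all genes.

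Between fibroblasts (4 lines) and mural cells (3 lines) no member passed the threshold, while 3.21% of 19173 genes were higher and 3.36% lower in fibroblasts. The levels of *Ccl11* were 405.2 in Acta2GFP, 313.9 in PdgfrbGFP, 232.5 in Cspg4dsRED and 227.5 in PdgfraGFP for fibroblasts, and 48.8, 218.3 and 135.2 for the mural cells of Acta2GFP, PdgfrbGFP and Cspg4dsRED. The mural cells were mixed differently in each line, with 3 pericytes of 84 cells in Acta2GFP, 33 of 63 in Cspg4dsRED and more than 50% in PdgfrbGFP, and *Ccl11* was lowest in the line with the fewest. The part of this mix in the comparison was not tested. The groups did not overlap, and the lowest fibroblast line lay just above the highest mural line (log2 fold change 1.33, SE 0.45, edgeR adjusted p = 0.125). *Ccl7* came nearest (3.05, SE 0.91, edgeR adjusted p = 0.0814), from 16.8 to 33.4 in fibroblasts and 0.175 to 6.51 in mural cells. *Ccl19* had the opposite sign (-1.75, SE 1.14, edgeR adjusted p = 0.462). The median of the 7 tested members was 1.62 against -0.03 for all genes. An unadjusted edgeR p under 0.05 was found for 5 of the 7, all higher in fibroblasts, and for 20.2% of all genes. DESeq2 called 3 (*Ccl7*, *Ccl8* and *Ccl25*) and 15.4% of all genes. With the line as a block 3.08% of genes were called in place of 6.57%, and again no member. With sums per plate in place of sums per line, *Ccl7* (edgeR adjusted p = 0.037), *Ccl8* (0.0305), *Ccl11* (0.0194) and *Ccl25* (0.0482) passed, as did 16.1% of all genes.

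Between pericytes (2 lines) and vascular smooth muscle cells (3 lines) no member passed with edgeR without the line as a block. In that fit 0.263% of 16328 genes were higher and 0.404% lower in pericytes. *Ccl11* missed it with a log2 fold change of 4.76 (SE 1.05, edgeR adjusted p = 0.0742). It was higher in pericytes on 3 of the 3 plates with at least 10 cells of both, at 257.3 to 439.8 against 0.954 to 7.87, and it passed without Acta2GFP (6.60, edgeR adjusted p = 0.0259), without Cspg4dsRED (4.47, 6.02e-11) and without PdgfrbGFP (4.08, 0.00053), the last 2 with a lone pericyte line assumed to vary like the other groups. It also passed with sums per plate (edgeR adjusted p = 0.00656; 2.18% of genes called) and with no filter on low counts (1.85% called). An unadjusted p under 0.05 was found for 2 of the 5 tested members (*Ccl11* and *Ccl19*) and 10.9% of all genes, and DESeq2 called *Ccl11* (adjusted p = 0.00185) and 5.92% of all genes. *Ccl19* (6.47, SE 2.32), *Ccl2* (3.06, SE 1.67), *Ccl8* (2.87, SE 2.59) and *Ccl7* (2.61, SE 2.07) had larger errors (edgeR adjusted p from 0.327 to 0.775). Without PdgfrbGFP the values of *Ccl2*, *Ccl7* and *Ccl8* were -0.01, -3.05 and -4.36. The median of the 5 was 3.06 against -0.03 for all genes. Interstitial against vascular smooth muscle cells gave *Ccl11* a log2 fold change of 2.33, from 1 interstitial line, so no test is read from it.

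*Ccl2* varied widely between plates. Over fibroblasts its level ran from 13.7 to 35.4 between lines and from 8.02 on plate colon_439s to 77.9 on plate colon_686s, and within cluster 1 from 0.634 on plate colon_513s to 161.4 on plate colon_686s. The 12 cells of colon_686s had the highest median of total counts in that cluster (891492) and the 19 of colon_685s, at 122.5, the lowest (68394). *Ccl11* ran from 192.5 on plate colon_1075s to 460.8 on plate colon_682s over the fibroblasts of the 9 plates. On plate colon_075s, with the highest immediate-early score, fibroblasts held *Ccl2* at 12.02 and *Ccl7* at 22.9, against 10.5 and 10.3 on colon_073s of the same line.

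**Figure D4:**
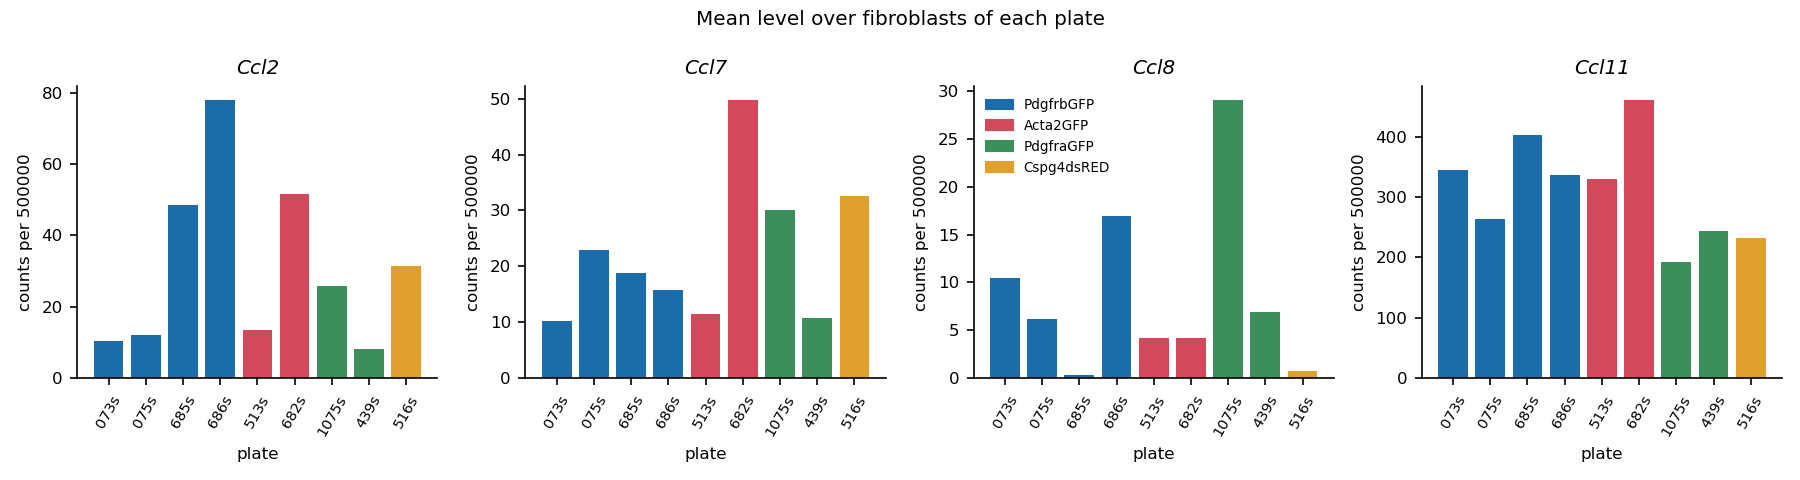
Mean level over the fibroblasts of each plate in counts per 500000, with bars coloured by reporter line, for *Ccl2*, *Ccl7*, *Ccl8* and *Ccl11*; there are no error bars because a plate is 1 value. *Ccl2* ranges from 8.02 on plate colon_439s to 77.9 on plate colon_686s, plates of PdgfrbGFP differ from each other, and *Ccl8* is highest on plate colon_1075s.

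*Ccl2* and *Ccl7*, neighbours on chromosome 11, were linked within cells: cells with *Ccl2* held *Ccl7* more often than cells without it. Over all fibroblasts *Ccl7* was counted in 72.3% of cells with *Ccl2* and in 32.8% of those without. In cluster 7 *Ccl7* was counted in 86.96% of 69 Acta2GFP cells with *Ccl2* and in 37.9% of 58 without it, and in PdgfrbGFP in 86.1% of 36 and 52.5% of 40. In cluster 1 the shares were 79.6% and 29.2% in Acta2GFP, 62.5% and 26.5% in PdgfraGFP, and 65.6% and 39.3% in PdgfrbGFP. The direction was the same in 9 of the 10 pairs of cluster and line, the exception being cluster 5 of Cspg4dsRED with 2 cells that held *Ccl2*. Spearman's rho between their levels over cells was 0.557 over the cells of cluster 7 and 0.374 over those of cluster 1, and -0.0244 and 0.107 between *Ccl2* and *Ccl8*. By shares, *Ccl8* too was counted more often in cells with *Ccl2*, at 27.45% against 18.69% over all fibroblasts. The shares were 41.42% and 27.71% in cluster 1 and 18.02% and 15.18% in cluster 7.

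Cells with *Ccl2* were also deeper in 8 of the 9 groups compared, for example 262841 against 208332 median counts in cluster 7 of Acta2GFP, and depth alone raises the chance of finding any gene. They had a higher score of 17 NF-kB response genes in all 9 groups, such as 2.88 against 2.15 in that group. The immediate-early score was higher in 8 of the 9, the exception being PdgfrbGFP pericytes with 4.23 against 4.54. The part of depth in these differences was not tested.

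Among the atypical receptors, *Ackr4* and *Ackr2* were high at the crypt base and low in its middle. *Ackr4*, which takes up Ccl19, Ccl21 and Ccl25, was at 235.6 in cluster 7 of PdgfraGFP and 228.3 in that of PdgfrbGFP, with Acta2GFP just below, and at 337.1, 273.9 and 202.2 in cluster 5 of Acta2GFP, PdgfraGFP and PdgfrbGFP. In Cspg4dsRED it was at 34.1 in cluster 5. In cluster 1 it was at 9.06, 3.67 and 13.7. *Ackr2*, which clears inflammatory CC chemokines including Ccl2, Ccl7, Ccl8 and Ccl11, was at 93.5, 80.8 and 74.8 in cluster 7 and at 1.29, 0.150 and 2.16 in cluster 1. In cluster 5 it was at 39.15, 1.14 and 24.35 in these lines and 10.98 in Cspg4dsRED. For *Ccrl2* the base was at 6.97 ± 5.97 and the middle at 11.5 ± 3.93 (SD, n = 3 lines each). The lines of cluster 7 and cluster 1 did not overlap for *Ackr4* or *Ackr2*, and did for *Ccrl2*.

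**Figure D5:**
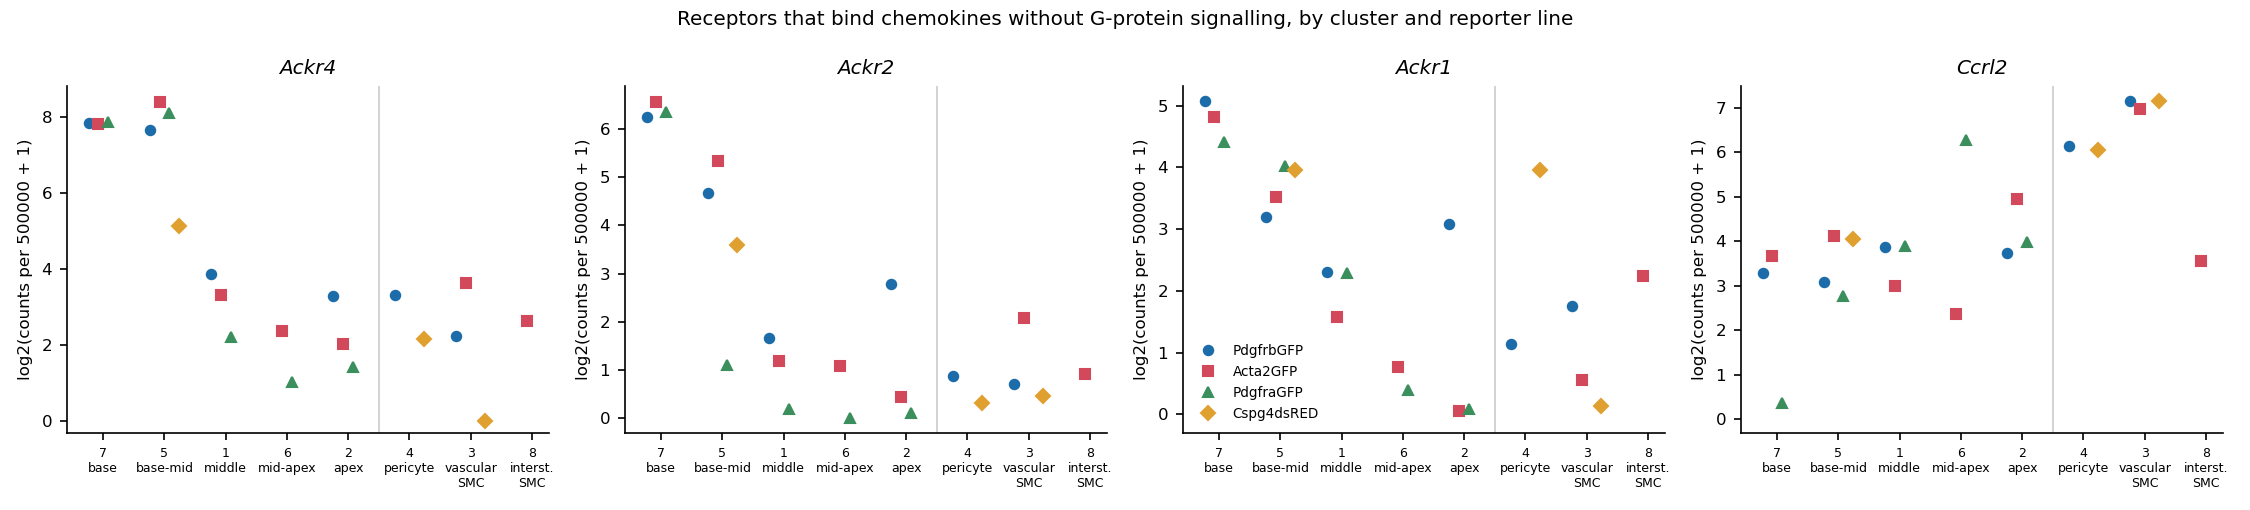
Level of 4 chemokine-binding receptors by cluster, as log2(counts per 500000 + 1) of the mean over the cells of a reporter line, 1 point per line with at least 10 cells; fibroblast clusters stand left of the grey line. *Ackr4* is high in clusters 7 and 5, *Ackr2* is highest in cluster 7, and *Ccrl2* is highest in cluster 3 in the 3 lines that have it and in cluster 6 in PdgfraGFP (76.8).

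Of the 16 CC and atypical receptors, 5 could be tested between base and middle and 4 were higher at the base, where 1.24% of all genes were: *Ackr2* (log2 fold change 6.37, SE 0.92, edgeR adjusted p = 0.0138), *Ackr4* (4.99, SE 0.50, edgeR adjusted p = 0.00283), *Ackr1* (2.85, SE 0.56, edgeR adjusted p = 0.0418) and *Ackr3* (1.93, SE 0.18, edgeR adjusted p = 0.00217). The median of the 5 was 2.85 against -0.03 for all genes. *Ackr1* presents chemokines on venules and *Ackr3* binds Cxcl12. All 4 missed the threshold without Acta2GFP (edgeR adjusted p 0.0792 for *Ackr3* to 0.472 for *Ackr1*), and *Ackr2*, *Ackr4* and *Ackr1* without PdgfrbGFP (0.149, 0.0637 and 0.475). *Ackr1* also missed it with the line as a block (edgeR adjusted p = 0.129).

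At the apex *Ackr4* (-4.43, SE 0.58, edgeR adjusted p = 0.00238) and *Ackr3* (-1.31, SE 0.26, edgeR adjusted p = 0.0162) were lower than in clusters 1, 5 and 7, 2 of 5 tested against 3.76% of all genes, and both missed the threshold without Acta2GFP (0.0524 and 0.0818), *Ackr3* also without PdgfraGFP (0.0551) or PdgfrbGFP (0.078). Between fibroblasts and mural cells *Ackr2* (5.17, edgeR adjusted p = 0.0171) and *Ackr4* (4.23, edgeR adjusted p = 0.0112) were higher and *Ccrl2*, which binds chemerin, was lower (-3.04, SE 0.36, edgeR adjusted p = 0.00159), 3 of 6 tested against 3.21% of all genes higher and 3.36% lower. *Ackr2* missed the threshold without Cspg4dsRED (0.091) or PdgfrbGFP (0.123), and *Ackr4* without Acta2GFP (0.0702) or PdgfrbGFP (0.0759). *Ccrl2* was at 124.2 to 141.5 in vascular smooth muscle cells and at 65.8 and 69.8 in pericytes, and was at 10.8 in Acta2GFP, the 1 interstitial line with at least 10 cells. The 4 interstitial cells of PdgfrbGFP had a level of 67.99, so the 2 lines differed and no call is made from them. Between pericytes and vascular smooth muscle cells no receptor of 6 passed with edgeR, 1 had an unadjusted p under 0.05, and DESeq2 called none.

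Of 15 other CC ligands 14 were in the table and none passed with edgeR or DESeq2 in the 4 comparisons with more than 1 line per group, in which 2 to 7 could be tested and at most 1 had an unadjusted edgeR p under 0.05. *Ccl21a*, a Ccr7 ligand like Ccl19, was at 19.2 at most, and *Ccl12* at 0.211 at most although *Ccl8*, its neighbour, reached 42.6. The 250 bases upstream of both genes are shown for this contrast, from RefSeq on GRCm38.p6, with TATAAA in capitals.
Ccl8, chr11:82114935-82115184, + strand: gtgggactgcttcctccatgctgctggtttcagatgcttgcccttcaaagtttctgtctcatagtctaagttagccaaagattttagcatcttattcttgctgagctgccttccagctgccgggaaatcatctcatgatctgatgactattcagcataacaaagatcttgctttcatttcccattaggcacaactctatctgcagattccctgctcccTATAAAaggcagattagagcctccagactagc
Ccl12, chr11:82101595-82101844, + strand: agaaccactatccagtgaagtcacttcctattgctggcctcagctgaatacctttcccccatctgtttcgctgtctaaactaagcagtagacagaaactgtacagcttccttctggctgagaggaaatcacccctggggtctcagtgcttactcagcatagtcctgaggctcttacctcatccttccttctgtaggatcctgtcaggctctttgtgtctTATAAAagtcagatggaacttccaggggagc

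TATAAA starts 32 bases before the start of *Ccl8* and 31 bases before that of *Ccl12*. It occurs on either strand in 13.6% of 32851 promoters of this length. Of 4 other motifs searched on both strands, GGGNNTTCC (NF-kB), TGANTCA (AP-1), TTNNGCAA (C/EBP) and TTCNNNGAA (GAS), none was in either window, and they occur in 5.82%, 7.81%, 10.8% and 8.30% of promoters.

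The NF-kB pathway and immediate-early factors are known inducers of several CC chemokines. Of 17 NF-kB response genes, all tested, *Nfkbiz* (3.21, edgeR adjusted p = 0.0079) and *Nfkbia* (1.71, edgeR adjusted p = 0.00239), both of the IkB family, were higher at the apex and the adhesion molecule *Vcam1* was lower (-2.62, edgeR adjusted p = 0.0446), with a list median of 0.71 (3.50% of all genes were higher and 3.76% lower). Of 16 immediate-early genes 14 were higher at the apex, against 3.50% of all genes, where *Ccl7*, *Ccl8*, *Ccl11* and *Ccl19* were lower, with *Fosb* (4.34, edgeR adjusted p = 0.00141) and *Ier3* (3.00, edgeR adjusted p = 0.00132) largest and a list median of 1.89. The count of 14 was 8 without Acta2GFP and 9 without plate colon_075s, and 11 to 13 without any other line. *Nfkbiz* (0.0793) and *Vcam1* (0.0681) missed the threshold without Acta2GFP and *Nfkbia* (0.0557) without plate colon_075s, and *Vcam1* also without any other line (0.0681 to 0.174). Between base and middle, *Vcam1* (-1.77, edgeR adjusted p = 0.00925; 0.111 without Acta2GFP and 0.156 without PdgfrbGFP) was the 1 gene of the NF-kB list to pass. No immediate-early gene passed there with edgeR, 4 had an unadjusted p under 0.05 (12.5% of all genes had), and DESeq2 called 3. In pericytes, where *Ccl11* had higher levels, 5 of the 16 were lower than in vascular smooth muscle cells, against 0.404% of all genes, such as *Fosb* (-3.73, edgeR adjusted p = 0.0175) and *Atf3* (-3.71, edgeR adjusted p = 0.0194), with a list median of -2.07. None of them passed without Acta2GFP with edgeR, although 12 had an unadjusted p under 0.05, and 11 passed without Cspg4dsRED, where 2.44% of all genes were called (0.300% without Acta2GFP). In fibroblasts 3 were lower than in mural cells (*Atf3*, *Btg2* and *Zfp36*), against 3.36% of all genes, 2 with the line as a block and 1 without Acta2GFP, with a list median of -0.64. The part of these genes in the chemokine levels was not tested.

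Of 9 genes of lymphoid stroma, *Cxcl13*, a B cell attractant, was higher in fibroblasts than in mural cells (4.93, edgeR adjusted p = 0.00211), as was *Pdpn* (4.02, edgeR adjusted p = 0.0235; 0.0854 with the line as a block). *Cxcl13* was lower at the base than in the middle (-5.39, edgeR adjusted p = 0.0123), the direction of *Ccl19*, as was the B cell survival factor *Tnfsf13b* (-4.45, edgeR adjusted p = 0.0202; 0.061 with the line as a block). Both missed the threshold without Acta2GFP (0.245 and 0.294), and *Pdpn* without Acta2GFP (0.0769) or PdgfrbGFP (0.145).

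Likeness of pattern was measured over 21 sums of a cluster and line, as Pearson's r of log2(counts per 500000 + 1) among 10467 genes with a mean of at least 5, with no test since sums of a line share plates. *Ccl11* was most like *Adamts2* (0.951), *Rftn1* (0.915) and *Sirpa* (0.902). *Ccl7* was most like *Kctd9* (0.934), *Tnfrsf11b* (0.899) and *Fmnl1* (0.896), and *Ccl2* most like *Sp140* (0.804), *Cask* (0.795) and *Ppp2r2b* (0.785). Between members r was 0.774 for *Ccl2* and *Ccl7*, 0.689 for *Ccl2* and *Ccl11*, and 0.680 for *Ccl7* and *Ccl11*.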

How the data were processed

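Single-cell SmartSeq2 libraries of 1646 mouse colon cells were analysed, and the line, plate and cluster of a cell came from the labels. Per the study's methods, single reads of 50 bases were trimmed with trim galore, mapped to GRCm38 with TopHat2 and counted with featureCounts, with strand not stated, and cells with few counts, few genes or very many genes, cells without *Pdgfra* and *Pdgfrb*, and cells with an endothelial or immune signature were removed. The authors deposited raw read counts for every gene and cell in 1 table. Without molecular identifiers, intervals (95%, Clopper-Pearson for shares) cover counting error only. The 92 ERCC rows, 1.36% of counts, were left out, and 46005 of 46517 genes had a GENCODE vM21 symbol.

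Each class of cells was summed per line (at least 10 cells, 4616288 to 217742647 counts per sum). TMM and filterByExpr were applied, and edgeR 4.0.16 (glmQLFit, glmQLFTest, R 4.3.3) gave two-sided tests with Benjamini-Hochberg adjustment over all genes tested and a threshold of 0.05. The 3 mural classes were fitted together. No mice are named, so p-values measure only the spread between lines. The study itself took cells as replicates. Alternatives were DESeq2 1.42.0, no filter, sums per plate, at least 3 cells per sum, each line left out, and the line as a block; leaving out plate colon_075s or the highest cell of each cluster and line was chosen after seeing the data. Deviations of same-line sums from their group means correlated at 0.152 to 0.175 (fibroblasts and mural cells) and 0.133 to 0.171 (base and middle), so lines were taken as paired there and values with the line as a block are printed beside those without it, which remain the main values. The fits were tested on simulated data. No doublet caller was run.

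All 8 members are named, with up to 4 called genes per list and comparison and the 3 genes most like each member with a mean of at least 5 counts per 500000. The members and lists were chosen with earlier results of these data known. Coding sequences were taken from GRCm38 and promoters from RefSeq (GRCm38.p6), where *Ccl8*, *Ccl12*, *Ccl19*, *Ccl20* and *Ccl25* matched.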

Additional observations from a re-analysis of the deposited data

Results flagged for a closer look

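In 24 groups of 4 to 10 lines or plates, 7 had a lowest or highest value far from the rest. The rule flags about 1 in 20 groups by chance if values are independent and normally distributed. These groups shared cells, and some flagged values rest on very few counts. The 7 flags therefore cannot be set against that rate, and no excess over chance is read from them. *Ccl11* in cluster 5 was at 530.4 counts per 500000 in Acta2GFP, with the next line at 328.9. *Ccl25* in cluster 5 was at 10.87 in PdgfraGFP, with the next line at 1.188, and 6 cells held its counts. *Ccl19* in fibroblasts was at 2.978 on plate colon_513s, with the next plate at 0.9376.

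The other values rest on very few counts. *Ccl5* in cluster 5 was at 0.6897 in Cspg4dsRED, from 1 cell. *Ccl20* was at 0.05415 in fibroblasts and 0.007218 in cluster 5 of PdgfrbGFP and at 0.1237 in fibroblasts of plate colon_075s, and at 0 in the other lines and plates; 20 of these counts came from 2 cells.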

How the results depend on the processing

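The recomputed fold changes of members kept their direction and their side of the threshold in most settings; 21 were no longer called, 17 became called and 16 changed sign. The genes called between fibroblasts and mural cells (6.57% of those tested) were 15.4% with DESeq2, 16.1% with sums per plate, 3.08% with the line as a replicate block and 1.81% to 5.81% with 1 line left out. For the apex (7.26%) they were 15.2% with DESeq2, 12.1% with sums per plate and 1.18% to 7.60% with 1 line left out. For base against middle (2.49%) they were 8.38% with DESeq2, 5.30% with sums per plate, 1.39% with at least 3 cells, 1.26% with the replicate block and 0.135% to 2.71% with 1 line left out. For pericytes against vascular smooth muscle cells (0.668%) they were 5.92% with DESeq2, 1.85% with no filter, 2.18% with sums per plate, 1.04% with the replicate block and 0.300% to 2.44% with 1 line left out. For interstitial against vascular cells (1.04%, with 1 interstitial line) they were 5.87%, 1.84% and 3.49% with DESeq2, no filter and sums per plate and 2.55% to 4.23% with 1 line left out; no fit was possible without Acta2GFP. The causes were not tested.

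Signs changed as follows (log2 fold change). Between fibroblasts and mural cells *Ccl5* was 1.83 with the replicate block, 0.0308 without plate colon_075s and -0.51 to 0.0304 with 1 line left out, and *Ccl19* was -2.36 to 0.42 with 1 line left out. Between base and middle *Ccl2* was -0.66 with sums per plate, and *Ccl11* was -0.30 with sums per plate, -0.0062 without plate colon_075s and -0.045 to 0.14 with 1 line left out. Between pericytes and vascular cells *Ccl2*, *Ccl7* and *Ccl8* were lowest without PdgfrbGFP, and ran from -0.0147 to 5.96, from -3.05 to 5.64 and from -4.36 to 3.33 with 1 line left out. Between interstitial and vascular cells *Ccl2* was -0.15 with the replicate block, and *Ccl7* was -0.16 with at least 3 cells, -1.19 with the replicate block, -0.22 without Cspg4dsRED and -0.32 without PdgfrbGFP.

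Same-line sums correlated at 0.0851 to 0.115 in the apex comparison, below the comparisons taken as paired, and lines were not taken as paired there. For pericytes and vascular smooth muscle cells they correlated at 0.150 and 0.157 in 2 pairs, within the range of the comparisons taken as paired. The replicate block gave *Ccl19* an edgeR adjusted p of 0.0862 at the apex and *Ccl11* a log2 fold change of 7.14 (edgeR adjusted p = 0.00315) in pericytes. Shares of cells depend on depth: with each cell thinned to 50000 counts, *Ccl11* was found in 41.2% of apex and 94.8% of cluster 1 cells.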
